A study of Mus musculus with 6 samples.

Results

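The proteasome is the barrel-shaped protease that destroys proteins tagged with ubiquitin, and 49 genes of the proteasome and immunoproteasome were followed here among the 54532 genes of a heart RNA sequencing table. They were taken by name: every gene whose mouse symbol begins with Psma, Psmb, Psmc, Psmd, Psme, Psmf or Psmg and a number, pseudogenes left out, with at least 10 reads over the 6 libraries. Of 50 genes with such a name, only the thymus subunit Psmb11 was left out, with 0 reads, and 4 pseudogene rows held 1 read together. The rule sets Psmb8, Psmb9, Psmb10, Psme1 and Psme2, called the immunoproteasome group below, against the other 44, called constitutive below. Among the 44, Psmc3ip encodes a partner of meiotic recombinases and not a subunit, and Psme2b is an intronless copy of Psme2.

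Hearts came from wild-type mice (WT, 3 libraries) and from mice labelled ACKR4-KO (ACKR4_KO, 3 libraries), collected at day 14 after myocardial infarction. ACKR4 is a scavenging receptor for chemokines. All mice were C57BL/6 and 8 to 10 weeks old, and every heart was infarcted, so no uninjured heart is among the samples. How the knockout allele was made, which part of the heart was taken and whether each library is 1 animal are points on which the sources used here are silent, so the p-values measure only the spread between these libraries, which may be technical.

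The core particle of the proteasome, named 20S, stacks rings of alpha subunits, which gate the entry, and rings of beta subunits, of which Psmb5, Psmb6 and Psmb7 cut the protein chain. The 19S cap recognises ubiquitin, removes it and unfolds the substrate with a ring of ATPases. Under interferon, cells build an immunoproteasome in which Psmb8, Psmb9 and Psmb10 take the places of Psmb5, Psmb6 and Psmb7, and the 11S activator made of Psme1 and Psme2 can replace the cap. This form yields peptides that suit MHC class I molecules. In heart muscle the proteasome carries much of the turnover of sarcomere proteins.

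The libraries held 9422462 to 13910358 reads, of which the 49 genes took between 0.332% and 0.391%. Ackr4, the targeted gene, gave 165, 151 and 169 reads in WT against 4, 1 and 12 in ACKR4_KO. Summed levels of 6 cardiomyocyte markers were 29672 to 37178 CPM (reads scaled to a common library size) in WT and 38116 to 52781 CPM in ACKR4_KO. The 7 lung epithelial markers summed to 38.7 to 236 CPM in WT and to 0.323 to 1.83 CPM in ACKR4_KO, where Sftpc, Sftpd, Cldn18 and Scgb1a1 had 0 reads. The 5 fast skeletal muscle markers summed to 2.18 to 73.4 CPM in WT and to 1.29 to 5.84 CPM in ACKR4_KO. These tissues stand beside every comparison below, and their part in the results was not tested.

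No proteasome gene passed the test between ACKR4_KO and WT hearts. Of the 49 genes, 39 had a fitted log2 fold change above 0, against 52.0% of the 14406 genes tested. The median log2 fold change was 0.16 for the 44 constitutive genes and 0.019 for the immunoproteasome group, beside 0.012 over all genes tested. Under edgeR's quasi-likelihood test 0 of the 49 had an adjusted p below 0.05, and neither did any other gene (0.0% of all genes tested). Ackr4 itself, at a log2 fold change of -4.7, had an adjusted p of 0.099 by edgeR. A gene that did not pass can therefore still have changed. At an unadjusted p under 0.05, 2 of the 49 were higher and 0 were lower, where 3.81% and 3.64% of all genes tested were. By DESeq2 again 0 of the 49 passed, while 0.271% of the genes tested did. At an unadjusted p under 0.05 by DESeq2, 3 of the 49 (6.12%) were higher, against 3.73% of all genes tested. All 49 passed the filter on low counts, Psma8 through the ACKR4_KO libraries alone. Without Psma8 and Psmc3ip, 37 of 47 genes had a fold change above 0, and by edgeR 1 was higher at an unadjusted p under 0.05.

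**Figure D1:**
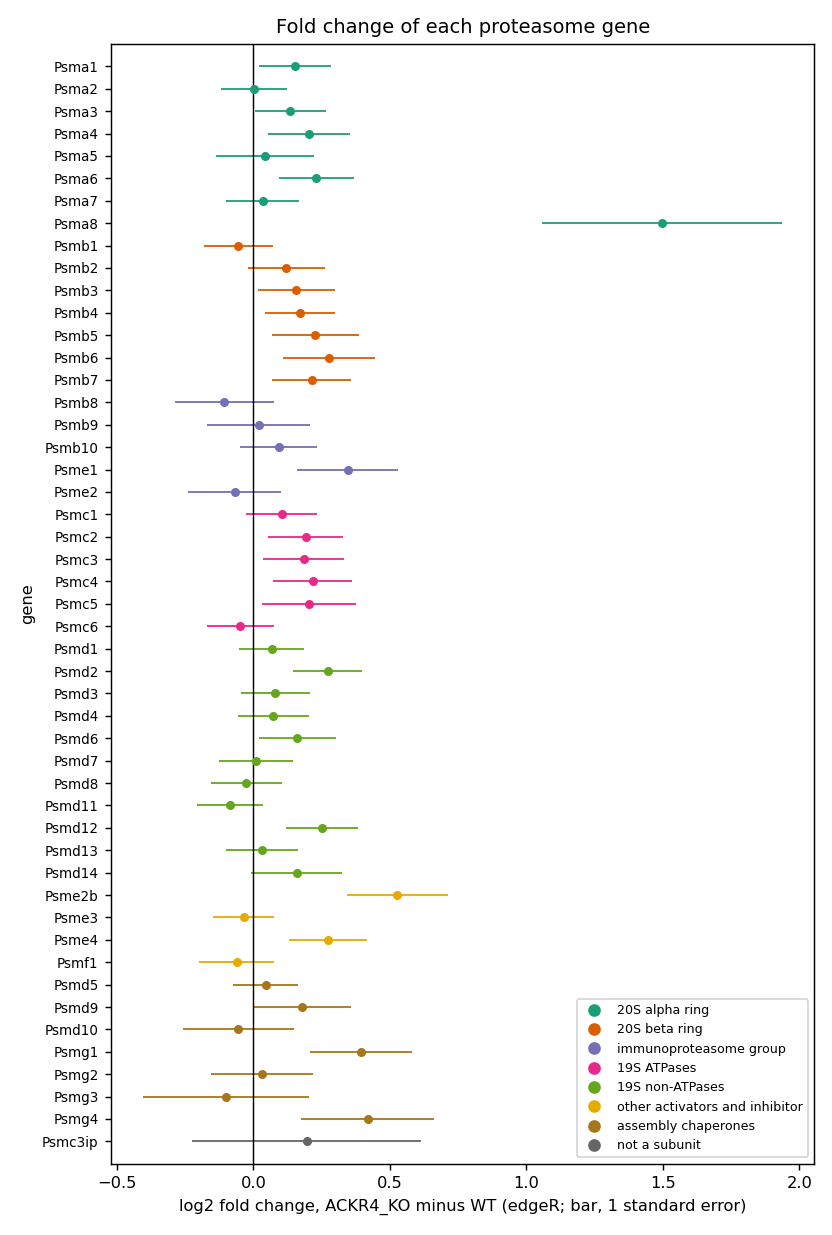
Fold change of each of the 49 genes. Each point is the fitted log2 fold change of ACKR4_KO over WT, the bar is 1 standard error, and colours mark the parts of the proteasome. Of the 49 points 39 lie to the right of 0, and Psma8, at 1.5, lies farthest.

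The 3 ACKR4_KO libraries differed among themselves. In replicate 2, 39 of the 49 genes lay above all 3 WT libraries, against 35.4% of all genes tested, and in replicate 3, 30 of the 49 did, against 34.2%. In replicate 1 only 4 of the 49 lay above the WT range and 16 lay below it, against 28.2% and 30.1% of all genes tested. These places use scaled library sizes, and the scaling factor was 0.891 for ACKR4_KO replicate 2 and 1.008 to 1.046 for the others. Before scaling, the 49 genes took 0.350%, 0.374% and 0.334% of the reads in WT and 0.332%, 0.369% and 0.391% in ACKR4_KO. By that share ACKR4_KO replicate 2 lay within the WT range. Relative to the WT mean, the median of the constitutive genes on the log2 scale was -0.064, 0.24 and 0.22 for the ACKR4_KO libraries in order of replicate, and 0.0029, 0.088 and -0.087 for the WT ones. ACKR4_KO replicate 1 therefore fell among the WT libraries and the other ACKR4_KO libraries above them. Without ACKR4_KO replicate 1 the constitutive median was 0.25 and 12 of 49 genes (24.5%) were higher at an unadjusted p under 0.05, against 6.99% of all genes tested. Without ACKR4_KO replicate 2 that median was 0.063, without ACKR4_KO replicate 3 it was 0.086, and without WT replicate 3, the lowest WT library, it was 0.076. By edgeR 1, 2 and 1 of the 49 were then higher at an unadjusted p under 0.05 (2.04%, 4.08% and 2.04%). The shares of all genes tested in the same fits were 3.1%, 6.16% and 1.4%. No gene of the 49 passed the adjusted threshold in any of these fits.

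**Figure D2:**
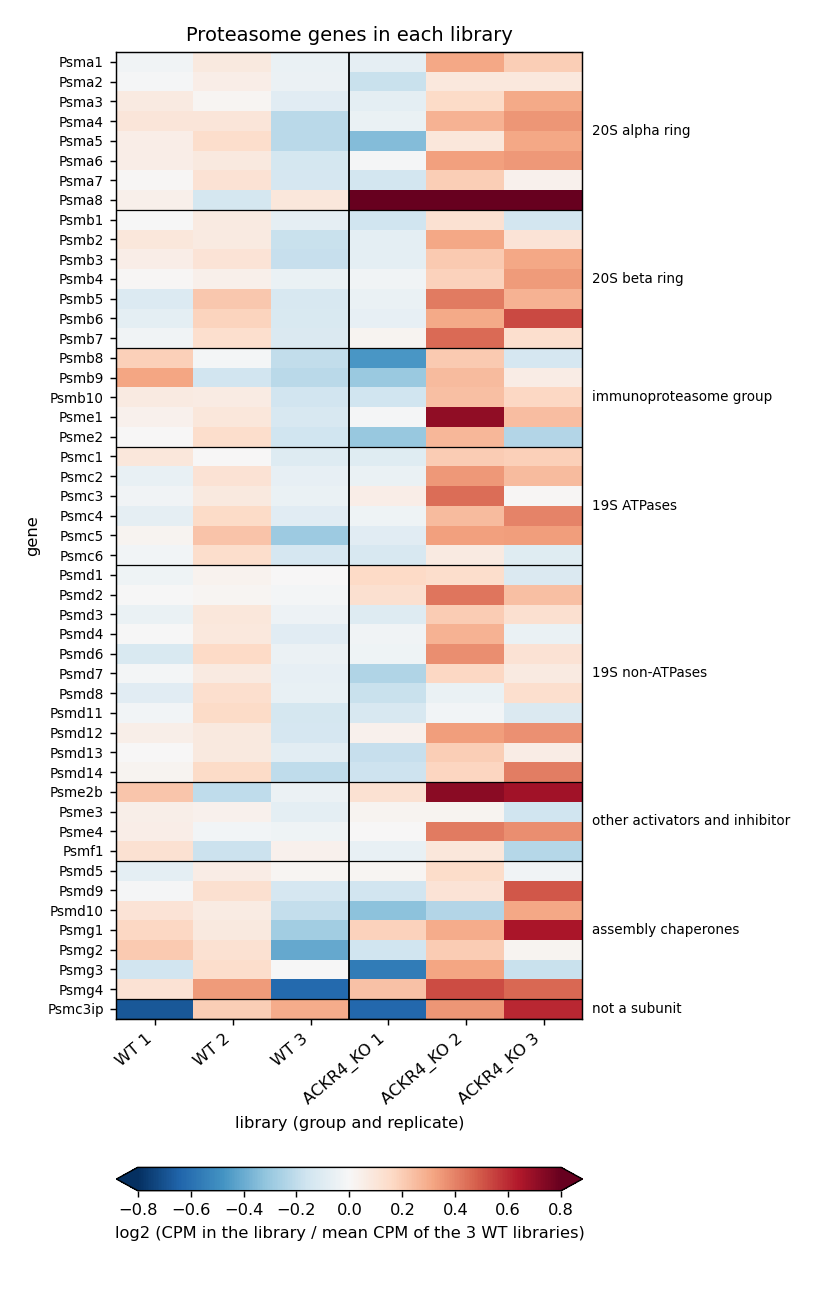
Level of every gene in every library. Rows are the 49 genes ordered by their place in the proteasome, columns are the 6 libraries, and colour gives the log2 ratio of the CPM to the mean of the 3 WT libraries (red above, blue below, with Psma8 beyond the scale in ACKR4_KO). The columns of ACKR4_KO replicates 2 and 3 are mostly red and that of replicate 1 is mostly pale or blue.

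**Figure D3:**
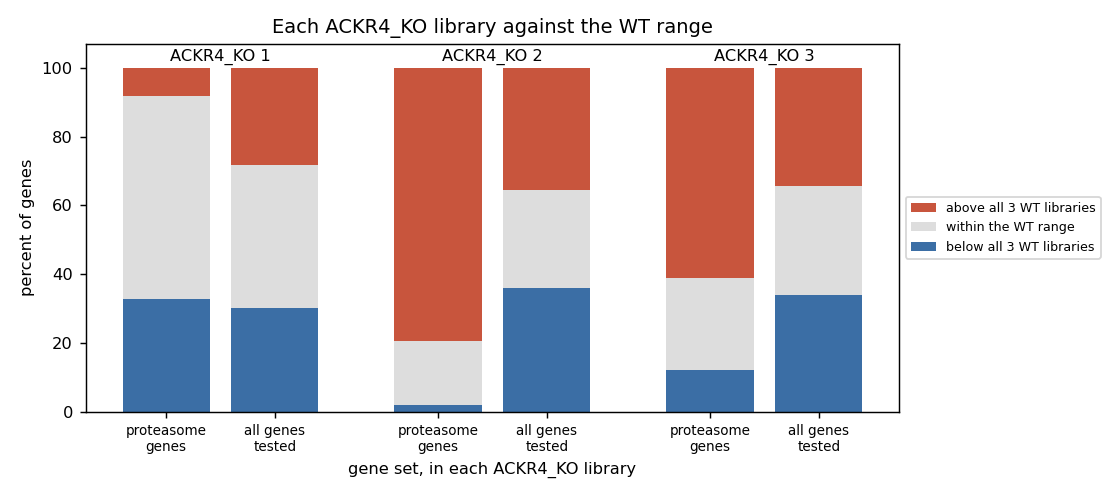
Place of each ACKR4_KO library against the WT range. Bars give the percent of genes above all 3 WT libraries, within their range or below all 3, for the 49 proteasome genes and for the 14406 genes tested. Of the 49 genes, 4, 39 and 30 were above the WT range in replicates 1, 2 and 3.

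Groups that did not overlap were found in 3 of the 49 genes, Psmd2, Psmg1 and Psma8, with ACKR4_KO above WT in each (6.53% of all genes tested). In none did ACKR4_KO lie below WT (7.63%). The count of 3 is near the share among all genes. Psma8 passed the low-count filter only through its ACKR4_KO libraries. Without Psma8 and Psmc3ip, the groups did not overlap in 2 of 47 genes. Members between 50 and 200 CPM varied within a group much as others of their level did. For these 32 members the median coefficient of variation was 7.68% in WT and 13.2% in ACKR4_KO, and for the 2870 genes tested in that range it was 6.99% and 13.95%. For the immunoproteasome group, of which Psmb8, Psmb9 and Psme2 lie below that range, it was 10.2% and 22.4%.

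The alpha ring came first in order of assembly, and its 7 general subunits had log2 fold changes between 0.0026 (Psma2) and 0.23 (Psma6), all above 0, with a median of 0.14. Psma6 was at 93.5, 95.1 and 81.9 CPM in the WT libraries and at 89.6, 113 and 115 CPM in the ACKR4_KO libraries. Its ACKR4_KO replicate 1 lay inside the WT range, and the adjusted p by edgeR was 0.707. Psma4 was at 76.6, 76.4 and 61.5 CPM in WT and at 68.8, 86.8 and 91.3 CPM in ACKR4_KO (log2 fold change 0.20, standard error 0.15). The ranges of Psma4 overlapped in the same way, with replicate 1 as the lowest ACKR4_KO library.

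Psma8, the germ-cell form of the alpha ring that takes the place of Psma7 in testis, was the gene with the largest fold change. Its reads numbered 6, 4 and 7 in WT against 20, 14 and 10 in ACKR4_KO, that is 0.467, 0.412 and 0.482 CPM against 1.62, 1.43 and 0.873 CPM. The groups did not overlap (log2 fold change 1.5, standard error 0.44). Because Psma8 passed the low-count filter only through its ACKR4_KO libraries, the filter favoured this direction, and its values are a description only. The unadjusted p was 0.00831 and the adjusted p by edgeR 0.609 (0.607 by DESeq2). Per kilobase of transcript it stood at 0.268 CPM in WT, the last of the 49, where Psma7 stood at 121 CPM.

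Among the constitutive beta subunits, 6 of 7 had a fold change above 0, with a median of 0.17, and Psmb1 was at -0.055. The catalytic ones had the largest fitted values. Psmb5, the chymotrypsin-like subunit (ENSMUSG00000022193, chromosome 14, 54614119 to 54618022, minus strand of GRCm38), was at 73.7, 92.2 and 72.7 CPM in WT and at 76.7, 106 and 96.3 CPM in ACKR4_KO. Psmb6, the caspase-like subunit, was at 91.6, 110 and 89.0 CPM in WT and at 92.6, 119 and 140 CPM in ACKR4_KO. Psmb7, the trypsin-like subunit, was at 86.9, 97.4 and 82.0 CPM in WT and at 90.1, 122 and 97.2 CPM in ACKR4_KO. In each of the 3 genes the highest ACKR4_KO library stood above all WT libraries and the lowest within their range. Their log2 fold changes were 0.23, 0.28 and 0.21 with standard errors of 0.16, 0.17 and 0.14, and none passed (adjusted p by edgeR 0.708 to 0.741).

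The fitted values of the inducible catalytic subunits were each smaller than their standard errors. Psmb8 (ENSMUSG00000024338, chromosome 17, 34197721 to 34201454, plus strand), which takes the place of Psmb5, was at 44.3, 38.4 and 33.9 CPM in WT and at 28.2, 44.9 and 35.4 CPM in ACKR4_KO. Both the highest and the lowest of the 6 libraries were ACKR4_KO libraries, and the fitted difference (log2 fold change -0.11) was below its standard error of 0.18. Psmb9 (ENSMUSG00000096727, chromosome 17, 34181987 to 34187764, minus strand), which takes the place of Psmb6, was at 36.0, 26.0 and 24.9 CPM in WT and at 23.6, 34.5 and 30.2 CPM in ACKR4_KO. Its group means, 29.0 ± 6.11 and 29.4 ± 5.51 CPM (SD, n = 3 each), differed by less than the spread in either group (log2 fold change 0.019, standard error 0.19). Psmb10 (ENSMUSG00000031897, chromosome 8, 105935735 to 105938444, minus strand), which takes the place of Psmb7, was at 82.0, 81.7 and 70.0 CPM in WT and at 69.7, 92.1 and 87.6 CPM in ACKR4_KO (log2 fold change 0.093, standard error 0.14). Adjusted p-values by edgeR for the 3 genes lay between 0.884 and 0.984.

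Per kilobase of the principal transcript, the inducible subunits stood below their constitutive counterparts in every library. On this scale Psmb8 was at 0.332, 0.230 and 0.258 of the level of Psmb5 in the WT libraries and at 0.203, 0.233 and 0.203 of it in the ACKR4_KO libraries. Psmb9 was at 0.232, 0.140 and 0.165 of the level of Psmb6 in WT and at 0.150, 0.171 and 0.128 in ACKR4_KO. Psmb10 came closest to its counterpart, at 0.835, 0.742 and 0.756 of the level of Psmb7 in WT and at 0.685, 0.671 and 0.797 in ACKR4_KO. In all 3 pairs the mean ratio was lower in ACKR4_KO and the groups overlapped. The mean log2 ratio was lower by 0.34 for Psmb8 to Psmb5, by 0.24 for Psmb9 to Psmb6 and by 0.12 for Psmb10 to Psmb7. Two-sided exact permutation tests over the 6 libraries gave p = 0.2, 0.5 and 0.3 (0.45, 0.5 and 0.45 adjusted over the 3 pairs), where 3 against 3 cannot go below 0.1. Without WT replicate 1, the library with the highest ratio in each pair, the differences were -0.19, -0.035 and -0.066. The ratio of 2 genes depends on the lengths used, and with all exons joined Psmb10 was at 1.76 times Psmb7 in WT in place of 0.778.

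**Figure D4:**
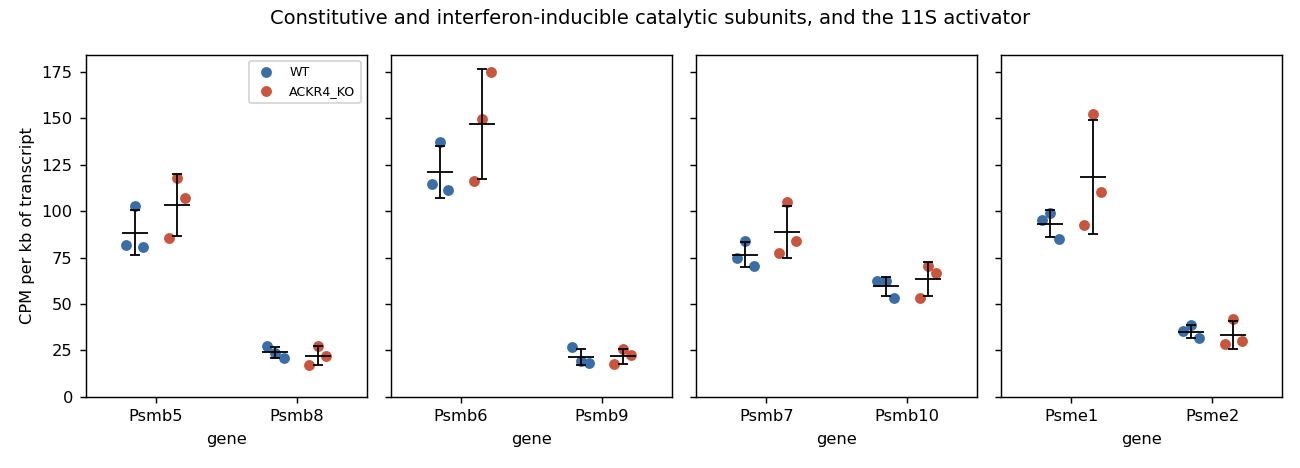
Level of each constitutive catalytic subunit beside its inducible counterpart, and of the 11S activator subunits. Points are libraries in CPM per kilobase of the principal transcript, bars are the mean and the SD of 3 libraries, blue for WT and red for ACKR4_KO. Psmb8 and Psmb9 lie below Psmb5 and Psmb6 in every library, and Psmb10 lies closer to Psmb7.

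The stretches around the start sites of 5 of these genes are shown because the constitutive and inducible subunits are known for different switches. These are the antioxidant-type element bound by Nfe2l1 for the former and interferon elements for the latter. The sequences are from RefSeq on GRCm38.p6, run 5′ to 3′ on the gene's strand, and cover 250 bases before and 50 after the start. Capitals mark TGACNNNGC (antioxidant response element core) in Psmb5 and Psmb6, TTCNNNGAA (gamma-activated sequence) in Psmb8 and GAAANNGAA (core of the interferon-stimulated response element) in Psme1, each searched on both strands. The match in Psme1 lies after the start site. In Psmb9 capitals mark the bases from the start of Tap1, which is read in the opposite direction, to the start of Psmb9.
Psmb5, chr14:54617946-54618245, minus strand: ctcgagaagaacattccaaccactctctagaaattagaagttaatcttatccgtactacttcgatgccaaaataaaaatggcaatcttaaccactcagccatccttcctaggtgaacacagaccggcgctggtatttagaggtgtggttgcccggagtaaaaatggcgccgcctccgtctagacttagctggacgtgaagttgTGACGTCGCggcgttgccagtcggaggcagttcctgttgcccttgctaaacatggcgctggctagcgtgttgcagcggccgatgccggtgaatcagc
Psmb6, chr11:70525107-70525406, plus strand: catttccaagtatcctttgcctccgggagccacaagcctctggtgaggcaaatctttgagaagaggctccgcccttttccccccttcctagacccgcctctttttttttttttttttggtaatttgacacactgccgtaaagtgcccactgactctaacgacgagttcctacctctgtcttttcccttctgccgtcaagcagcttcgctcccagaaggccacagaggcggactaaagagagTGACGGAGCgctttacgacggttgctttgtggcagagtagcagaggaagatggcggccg
Psmb8, chr17:34197945-34198244, plus strand: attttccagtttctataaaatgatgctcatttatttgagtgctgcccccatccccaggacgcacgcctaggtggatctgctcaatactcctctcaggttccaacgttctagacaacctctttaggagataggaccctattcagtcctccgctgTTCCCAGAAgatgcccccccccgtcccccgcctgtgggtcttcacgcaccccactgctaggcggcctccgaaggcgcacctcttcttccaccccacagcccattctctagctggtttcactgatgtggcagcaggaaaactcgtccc
Psmb9, chr17:34187281-34187580, minus strand: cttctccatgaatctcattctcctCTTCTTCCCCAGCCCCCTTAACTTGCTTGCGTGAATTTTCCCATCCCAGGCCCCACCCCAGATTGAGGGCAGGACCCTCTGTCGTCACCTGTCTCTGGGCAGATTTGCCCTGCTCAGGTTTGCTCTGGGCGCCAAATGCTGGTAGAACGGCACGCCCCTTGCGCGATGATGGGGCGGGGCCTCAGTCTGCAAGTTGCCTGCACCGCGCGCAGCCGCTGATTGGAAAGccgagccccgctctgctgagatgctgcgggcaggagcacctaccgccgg
Psme1, chr14:55578244-55578543, plus strand: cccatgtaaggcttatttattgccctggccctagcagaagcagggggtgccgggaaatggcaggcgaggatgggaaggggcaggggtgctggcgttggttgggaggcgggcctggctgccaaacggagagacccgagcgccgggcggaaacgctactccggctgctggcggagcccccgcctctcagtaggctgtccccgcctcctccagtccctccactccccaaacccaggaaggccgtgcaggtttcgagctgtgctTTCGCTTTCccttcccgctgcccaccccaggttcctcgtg

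Of the 49 genes, 41 had a start-site window in that table, 44 windows in all. The antioxidant core was in 6 of the 44 windows (13.6%, against 12.4% of 32851 windows of all genes), those of Psmb5, Psmb6, Psmc6, Psmd12, Psmd9 and Psme4. The interferon-stimulated core was in 7 (15.9% against 8.56%), of which only Psme1 belongs to the immunoproteasome group, and the gamma-activated sequence in 3 (6.82% against 8.30%), those of Psmb8, Psmd2 and Psmg1. A heat shock pair of half-sites, GAANNTTC, was in 3 windows (6.82% against 7.86%), those of Psmb5, Psmb9 and Psmf1. These shares are close to those of all genes except for the interferon-stimulated core, and a match of letters is a description of the window only.

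By RefSeq, Psmb9 and Tap1, the peptide transporter subunit that feeds MHC class I molecules, are read away from each other. Their start sites there are 226 bases apart, and their windows share 275 bases. Tap1 was at 70.6, 42.7 and 34.6 CPM in WT and at 32.7, 52.8 and 42.1 CPM in ACKR4_KO. WT replicate 1 was the highest library for both genes, ACKR4_KO replicate 2 the second and ACKR4_KO replicate 1 the lowest. Irf1, a transcription factor of interferon signalling, was at 70.0, 46.2 and 44.4 CPM in WT and at 36.7, 57.3 and 44.0 CPM in ACKR4_KO, with the same libraries at the top and bottom. Igtp, a GTPase induced by interferon-gamma, was at 128, 37.1 and 22.7 CPM in WT and at 35.5, 112 and 28.6 CPM in ACKR4_KO. Psmb8 and Psmb9 were high in the libraries, 1 of each genotype, where Tap1, Irf1 and Igtp were high, Igtp being picked with its values in view. Not every gene of the interferon list followed, as Irf8 and Cxcl10 were lowest in ACKR4_KO replicate 2 (15.2 and 1.64 CPM). None of Psmb8, Psmb9, Tap1, Irf1 and Igtp passed between the genotypes (adjusted p by edgeR 0.816 to 0.984). The GENCODE annotation, used for lengths and overlaps, places the starts of Psmb9 and Tap1 differently, so that the genes overlap. It has 212 bases of exon shared by Psmb9 and Tap1 on opposite strands and 498 by Psmb8 and an antisense gene. No source used here gives the strand setting of the counting, so reads there cannot be assigned to 1 strand.

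The 11S activator is built from Psme1 and Psme2, and neither gene passed. Psme1 (ENSMUSG00000022216, chromosome 14, 55578123 to 55581529, plus strand) was at 106, 110 and 94.8 CPM in WT and at 103, 169 and 123 CPM in ACKR4_KO (log2 fold change 0.35, standard error 0.18, adjusted p = 0.691 by edgeR). Without ACKR4_KO replicate 2, its highest library, the fold change of Psme1 was 0.13. Psme2 (ENSMUSG00000079197, chromosome 14, 55587441 to 55591113, minus strand) was at 33.8, 37.1 and 30.2 CPM in WT and at 27.4, 40.5 and 28.7 CPM in ACKR4_KO (log2 fold change -0.069, standard error 0.17). Reads of Psme1 outnumbered those of Psme2 by 3.14, 2.97 and 3.13 times in the WT libraries and by 3.76, 4.18 and 4.28 times in the ACKR4_KO libraries, with no overlap, a comparison chosen after the values were seen.

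The copy Psme2b (ENSMUSG00000078153, chromosome 11, 48945354 to 48946190, minus strand) bears on that ratio. It was at 35.9, 26.7 and 29.8 CPM in WT and at 33.6, 50.9 and 49.1 CPM in ACKR4_KO (log2 fold change 0.53, standard error 0.18). Its unadjusted p was 0.0192 and its adjusted p 0.661 by edgeR. Besides Psma8 it was the only one of the 49 under an unadjusted 0.05. ACKR4_KO replicate 1 lay within the WT range, and the other ACKR4_KO libraries lay above it. Its reads were 1.06, 0.720 and 0.986 times those of Psme2 in WT and 1.23, 1.26 and 1.71 times in ACKR4_KO. When the reads of Psme2 and Psme2b were added, Psme1 outnumbered them by 1.52, 1.72 and 1.58 times in WT and by 1.69, 1.85 and 1.58 times in ACKR4_KO, and the groups overlapped. Reads that match both copies can be dropped or misplaced in mapping and counting, and how alike the copies are was not measured. The levels of Psme2 and Psme2b are therefore uncertain apart.

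The activators of other kinds and the inhibitor differed among themselves. Psme4, the large activator PA200, was at 195, 185 and 184 CPM in WT and at 188, 251 and 243 CPM in ACKR4_KO (log2 fold change 0.27, standard error 0.14, adjusted p = 0.691 by edgeR). As in Psmb5 and Psmb6, ACKR4_KO replicate 1 lay in the WT range and the other ACKR4_KO libraries above it. Psme3, the nuclear 11S activator, was at 61.1, 60.6 and 56.1 CPM in WT and at 60.2, 60.0 and 53.2 CPM in ACKR4_KO. Psmf1, the inhibitor PI31, was at 26.0, 21.2 and 24.4 CPM in WT and at 22.9, 25.4 and 20.4 CPM in ACKR4_KO. The log2 fold changes of Psme3 and Psmf1, -0.036 and -0.062, were smaller than their standard errors of 0.11 and 0.14.

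In the ATPase ring of the 19S cap, 5 of 6 genes had a fold change above 0, with a median of 0.19, and Psmc6 was at -0.048. Psmc4 was at 53.9, 63.1 and 53.2 CPM in WT and at 55.3, 67.6 and 74.8 CPM in ACKR4_KO (log2 fold change 0.22). Psmc2 was at 83.0, 93.7 and 82.5 CPM in WT and at 83.3, 110 and 103 CPM in ACKR4_KO (0.19). In both genes replicates 2 and 3 of ACKR4_KO lay above all WT libraries and replicate 1 within them. Psmc3 was at 166, 179 and 164 CPM in WT and at 176, 231 and 171 CPM in ACKR4_KO (0.18), so that only replicate 2 stood above the WT range. The adjusted p of these ATPase genes by edgeR lay between 0.728 and 0.933.

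Of the 11 other subunits of the cap, 9 had a fold change above 0, with a median of 0.073 and a range from -0.086 (Psmd11, of the lid) to 0.27 (Psmd2). Psmd2, the scaffold of the base, was at 174, 176 and 172 CPM in WT and at 190, 234 and 206 CPM in ACKR4_KO. All 3 ACKR4_KO libraries stood above the narrow WT range, with a log2 fold change of 0.27 (standard error 0.13) and an adjusted p by edgeR of 0.674. Psmd12, of the lid, was at 76.6, 78.5 and 67.8 CPM in WT and at 76.0, 93.7 and 95.8 CPM in ACKR4_KO (0.25). Psmd6, also of the lid, was at 58.7, 71.3 and 61.8 CPM in WT and at 62.5, 82.8 and 69.2 CPM in ACKR4_KO (0.16). Psmd14, the deubiquitinase of the lid, and Psmd4, a ubiquitin receptor, had log2 fold changes of 0.16 and 0.073.

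Chaperones of assembly, which hold half-built rings and leave the finished particle, were the least abundant group and gave 5 of 7 fold changes above 0, with a median of 0.046. Psmg1, which guides the alpha ring, was at 13.5, 12.8 and 9.99 CPM in WT and at 13.7, 14.9 and 19.03 CPM in ACKR4_KO. Its groups did not overlap, though ACKR4_KO replicate 1 exceeded WT replicate 1 by less than the spread in WT (log2 fold change 0.39, standard error 0.19, adjusted p = 0.682 by edgeR). Psmg4 was at 11.6, 13.6 and 6.96 CPM in WT and at 12.6, 15.4 and 14.8 CPM in ACKR4_KO (0.42, standard error 0.24). Psmd9, a chaperone of the 19S base, was at 19.1, 21.0 and 17.5 CPM in WT and at 17.3, 20.7 and 27.1 CPM in ACKR4_KO (0.18), and without ACKR4_KO replicate 3 its fold change was -0.0092. Psmd9 shares 1849 bases of exon with a noncoding gene on the other strand. Psmc3ip, the gene that is no subunit, was at 2.24 ± 0.735 CPM in WT and at 2.58 ± 1.01 CPM in ACKR4_KO (SD, n = 3 each).

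Per kilobase of transcript, levels within the finished particle were uneven although its subunits are built in at equal numbers. The highest in WT were Psmb6 at 121 ± 14.0, Psma7 at 121 ± 10.5 and Psmc3 at 104 ± 5.19 CPM per kilobase (SD, n = 3 each), and the SDs of the first pair were larger than the gap between them. The lowest general subunits were Psma3 at 19.6 ± 1.08 and Psmd11 at 20.7 ± 2.16 CPM per kilobase. Psmb10 ranked 19th and Psmb8 and Psmb9 35th and 37th of the 49, while Psme1 ranked 5th and Psme2 28th. With all exons of a gene joined as its length, Psmb5 ranked first, Psma6 second and Psmc3 still 3rd, while Psmb6 ranked 7th and Psma7 14th. On that scale Psmb8 and Psmb9 ranked 38th and 43rd and Psmb7 went from 9th to 23rd, so ranks of genes with long alternative transcripts are uncertain.

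Genes that serve the proteasome were looked up in lists drawn up with earlier results of these data known. Of 20 regulators and factors of substrate delivery, 17 had a fold change above 0 (median 0.11), 0 were under an unadjusted p of 0.05, and Sem1 (a subunit of the lid), Pomp (the assembly factor of the core), Rad23b and Vcp had 0.37, 0.22, 0.15 and 0.15. Of 13 genes of ubiquitin supply, 11 were above 0 (median 0.19), with 1 higher and 1 lower at an unadjusted p under 0.05. The lower one was Rps27a, which encodes ubiquitin joined to a ribosomal protein, at 134, 260 and 184 CPM in WT and at 64.8, 71.0 and 126 CPM in ACKR4_KO (log2 fold change -1.14, standard error 0.32). Its groups did not overlap, and the adjusted p by edgeR was 0.606. Of the 13 genes, ACKR4_KO lay wholly below WT in 1 and wholly above it in 3, against 7.63% and 6.53% of all genes tested. Ribosomal protein genes have many processed copies, so reads of Rps27a can be dropped or misplaced in mapping and counting. Ubb, the most abundant ubiquitin gene, and Uba1, the activating enzyme, had 0.20 and 0.22.

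Of 10 genes that control proteasome transcription, 8 were above 0 (median 0.051) and 1 was under an unadjusted 0.05, the small Maf protein gene Mafg (0.26). Nfe2l1, the factor that raises proteasome genes when the protease is blocked, was at 557, 501 and 500 CPM in WT and at 515, 547 and 540 CPM in ACKR4_KO (log2 fold change 0.040, standard error 0.14). Maff and Ddi2, the protease that activates Nfe2l1, had 0.39 and 0.15. Of 11 muscle ubiquitin ligases and partners, 9 were above 0 (median 0.22). Trim54 was at 127, 129 and 108 CPM in WT and at 144, 179 and 168 CPM in ACKR4_KO with no overlap (0.44, standard error 0.14, adjusted p = 0.624 by edgeR). In 2 of the 11 genes ACKR4_KO lay wholly above WT, against 6.53% of all genes tested. Stub1, Trim55 and Fbxo40 had 0.25, 0.24 and 0.074. Of 12 autophagy genes, 4 were above 0 (median -0.061), and Tfeb, Map1lc3a, Atg12 and Sqstm1 had 0.40, 0.28, -0.15 and 0.018.

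Antigen processing and MHC class I genes, which use the peptides of the immunoproteasome, were above 0 in 3 of 14 genes, with a median of -0.13. H2-D1, Tapbp, Tapbpl and H2-Q4 had -0.16, -0.19, -0.26 and -0.25, and 0 of the 14 were under an unadjusted 0.05. Interferon response genes were above 0 in 8 of 17, with a median of -0.10 and a range from -0.66 (Cxcl9) to 0.83 (Ifit1). Irf8, Socs1, Gbp2 and Iigp1, named by their p or abundance, had -0.39, -0.53, -0.44 and -0.31. Heat shock genes were above 0 in 14 of 14, with a median of 0.39, and Hspb1, Hspe1, Bag3 and Hspa8 had 0.64, 0.58, 0.31 and 0.41. Beside the median of the immunoproteasome group, 0.078, 0.072 and -0.15 by WT library and -0.28, 0.27 and 0.079 by ACKR4_KO library, the interferon list stood at 0.38, -0.11 and -0.38 and at -0.64, 0.83 and -0.32. ACKR4_KO replicate 2 was the highest library and ACKR4_KO replicate 1 the lowest for both. The heat shock list stood at 0.94 in ACKR4_KO replicate 2 and between -0.14 and 0.16 in the other libraries, and its part in the proteasome levels was not tested.

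**Figure D5:**
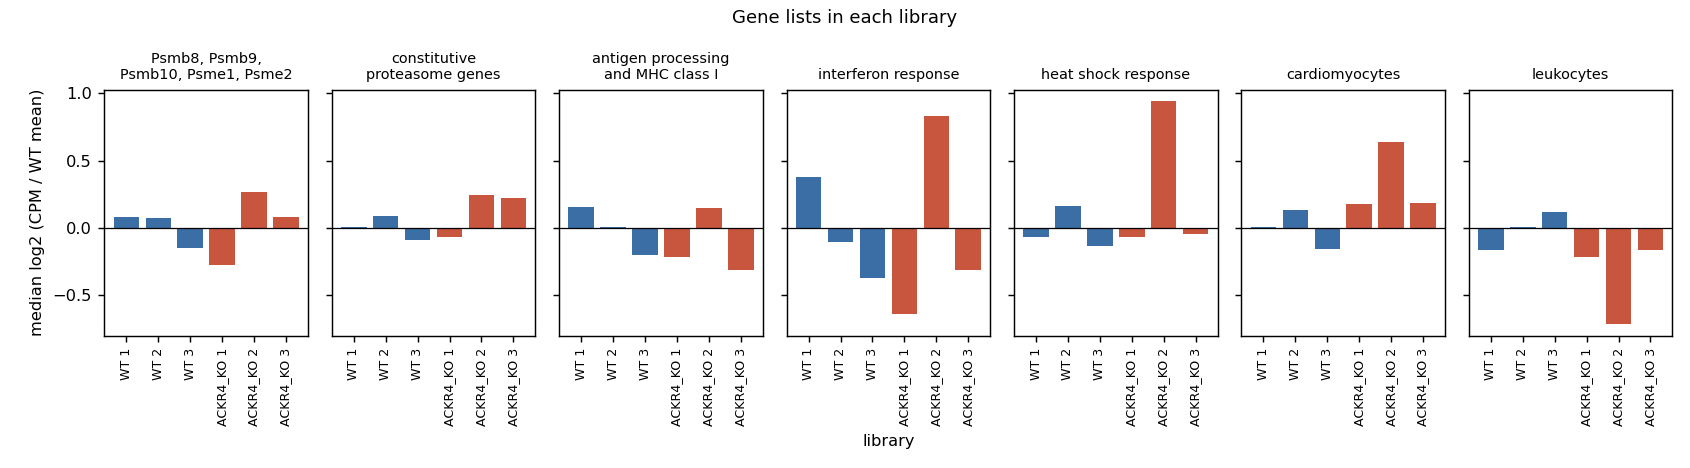
Library medians of the proteasome genes and of other gene lists. Each bar is 1 library (blue WT, red ACKR4_KO) and gives the median over the list's genes of the log2 ratio of the CPM to the WT mean. ACKR4_KO replicate 2 is the highest library for the immunoproteasome group, the interferon and heat shock lists and the cardiomyocyte markers, and the lowest for leukocyte markers.

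Markers of cell types moved with the libraries as well. The 6 cardiomyocyte markers stood at 0.18, 0.64 and 0.18 relative to the WT mean in ACKR4_KO replicates 1, 2 and 3. Leukocytes express the immunoproteasome at high levels. The 4 general leukocyte markers summed to 201 to 246 CPM in WT and to 202, 143 and 206 CPM in ACKR4_KO replicates 1, 2 and 3. Of these markers 4 of 4 had a fold change below 0. T and NK cell markers summed to 14.7 to 20.3 CPM in WT and to 7.94 to 8.20 CPM in ACKR4_KO, with 7 of 7 tested lower. Macrophage markers summed to 820 to 1004 CPM in WT and to 977, 689 and 962 CPM in ACKR4_KO replicates 1, 2 and 3. Their fold change was below 0 in 6 of 7, and only replicate 2 lay below the WT range. Fibroblast markers summed to 8086 to 9034 CPM in WT and to 7556, 3078 and 10001 CPM in ACKR4_KO replicates 1, 2 and 3. Their fold change was below 0 in 4 of 5, though replicate 3 lay above all WT libraries and replicate 2 was by far the lowest. Smooth muscle and pericyte markers summed to 1502 to 1700 CPM in WT and to 1177 to 1428 CPM in ACKR4_KO, with 3 of 4 lower and no overlap of the sums. Endothelial markers summed to 1452 to 1639 CPM and 1135 to 1468 CPM, with 4 of 4 lower, and those of dendritic cells and MHC class II to 886 to 1251 CPM and 722 to 980.2 CPM, with 5 of 5 lower. In bulk hearts, fewer cells of a type and less RNA per cell cannot be told apart, and the part of these cell types in the proteasome levels was not tested.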

How the data were processed

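RNA from infarcted hearts was sequenced in 6 libraries, and the authors deposited whole-number counts of reads per gene, 1 column per library, with no normalization. Per the submitters' processing notes, CASAVA 1.8.2, HISAT2 and HTSeq 0.6.0 were used with mm10. No source used here gives the annotation release or strand setting. Symbols were found for 54409 of 54532 identifiers, and coordinates, lengths and overlaps came from GENCODE M21 (GRCm38, the assembly of mm10). The length of a gene is that of its longest principal protein-coding transcript.

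Genes were filtered with filterByExpr (edgeR 4.0.16, R 4.3.3, minimum count 10, minimum total 15), which left 14406, and scaled by TMM. CPM used these scaled library sizes, in which 3 reads correspond to 0.207 to 0.309 CPM. Groups were compared two-sided by edgeR's quasi-likelihood test with robust estimation. P-values were adjusted by Benjamini-Hochberg across the 14406 genes, and 0.05 was the threshold. Fold changes are ACKR4_KO over WT, and a standard error is the log2 fold change over the root of the test statistic. The edgeR comparison was also run on simulated counts with known changes, and the outcome is not given here. Ratios of pairs were compared by exact permutation. Library medians of the other lists used a pseudocount of 0.5 CPM and the WT mean of CPM, and those of the proteasome genes used no pseudocount and the WT mean of log2 values. The alternatives tried were DESeq2 1.42.0, limma-voom (limma 3.58.1), scaling by RLE or the upper quartile, other filters, leaving out mitochondrial and hemoglobin genes, no robust estimation, a replicate block and each library left out. Genes named are the immunoproteasome group, their counterparts, Psme3, Psme4, Psmf1 and the 3 smallest p of each subcomplex, and in each list the 3 smallest p and the most abundant gene. Genes, lists and comparisons were chosen with earlier results of these data known. Any further gene that is named was picked with its values in view. A few genes of the lists that this rule takes are not reported here.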

Additional observations from a re-analysis of the deposited data

How the results depend on the processing

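The count of all genes past the threshold, 0 in the reported fit, was 39 with DESeq2, 24 with no filter, 6 with the replicate block and 0 to 1 with a library left out. Of the 49 proteasome genes 0 passed in any of the 15 alternatives. Those under an unadjusted 0.05, 2 as reported, were 1 with a filter of 1 CPM in 3 libraries, which drops Psma8, and 1 to 12 with a library left out. Outside the left-out libraries 0 signs of the 23 genes named by the rule turned. With a library left out the lowest and highest log2 fold changes had opposite signs for Psmb8 (-0.29 and 0.046), Psmb9 (-0.11 and 0.21), Psme2 (-0.26 and 0.036), Psme3 (-0.074 and 0.026), Psmf1 (-0.14 and 0.018) and Psmd9 (-0.0092 and 0.32). The constitutive median then lay between 0.063 and 0.25, and that of the immunoproteasome group between -0.11 and 0.16. The difference of log2 ratios lay between -0.46 and -0.19 for Psmb8 to Psmb5, between -0.40 and -0.035 for Psmb9 to Psmb6 and between -0.20 and -0.066 for Psmb10 to Psmb7. With the reads of Psme2b added, a choice made after the data were seen, the log2 difference of Psme1 to Psme2 was 0.085. Same-numbered libraries correlated in their deviations at 0.063, 0.060 and 0.13, and differently numbered ones at values from -0.14 to 0.074. Deviations from a mean of 3 libraries cannot settle whether the numbers pair the libraries. The replicate block gave a constitutive median of 0.15. The exact sign-flip test over the replicate numbers gave p = 0.5 for each of the 3 ratios, where it cannot go below 0.25.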
